A study of Mus musculus with 16 samples.

Results

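Imprinted genes are expressed from only the maternal or only the paternal chromosome. The 48 described here, with the control regions beside H19, Meg3, and Rasgrf1, were taken from a list of well-known mouse imprinted genes, and all 48 were found among the 55413 genes annotated on the autosomes, X, and Y in GENCODE vM21 (mm10). By the expressed copy, 19 are maternal and 29 are paternal. Among all 48, 17 were classed as having a promoter known to be methylated in oocytes and not in sperm. Another 11 lie in domains whose control region is methylated in sperm, and the remaining 20 were placed in neither class. Promoters inside genes of those 20, such as Grb10, Inpp5f, and Gnas, were not considered for the classes. Methylation was not measured. For Snrpn, Mest, Plagl1, and Impact the annotated gene start is an upstream one, far from further starts of the gene. Their start values may therefore not be those of the methylated promoter. Chromatin was measured in live haploid spermatids, the postmeiotic male germ cells, sorted by Hoechst staining and propidium iodide from testes of 2-month-old mice. The KO males carry deletions that disrupt all 3 H2A.B genes, which encode a short histone H2A variant, and come from a single CRISPR/Cas9 strain backcrossed to C57BL/6J. The WT males are their siblings, and the 2 sibling pairs give 2 animals per genotype. AutoCUT&RUN, in which a nuclease tethered to an antibody releases the DNA around its target, was run with H3K4me3, H3K27me3, and H3K9me3 antibodies and with IgG as control, giving 16 libraries in 8 groups of 2.

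Imprints are laid down as DNA methylation in the germ line, at control regions that are methylated in either the egg or the sperm. In male germ cells the marks of both parents have been erased and replaced by the paternal pattern, so the names maternal and paternal describe expression in the offspring and not in these cells. H3K4me3 typically lies at active or poised promoters, H3K27me3 is the mark of Polycomb repression, and H3K9me3 is the mark of heterochromatin, which the zinc-finger protein ZFP57 and its partners keep at imprinted control regions after fertilization.

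Promoters of 6 members are printed because their chromatin stood at opposite ends of the list. Kcnq1ot1 and Mcts2 had high H3K4me3, Peg3 had fragments of both marks, and Slc38a4, Magel2, and Rasgrf1 had high H3K27me3. Each run is RefSeq sequence of GRCm38.p6, from 250 bases before to 50 bases after the RefSeq start, 5′ to 3′ on the gene's strand, with every CpG, the dinucleotide that carries DNA methylation, in capitals. The table held 36 of the 48 members.
Kcnq1ot1, chr7:143296498-143296797, - strand: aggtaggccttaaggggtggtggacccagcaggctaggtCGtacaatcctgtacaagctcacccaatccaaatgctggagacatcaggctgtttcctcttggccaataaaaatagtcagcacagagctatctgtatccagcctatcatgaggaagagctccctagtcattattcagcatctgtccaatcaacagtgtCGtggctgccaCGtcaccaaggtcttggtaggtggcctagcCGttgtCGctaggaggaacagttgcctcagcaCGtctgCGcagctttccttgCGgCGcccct
Mcts2, chr2:152686898-152687197, + strand: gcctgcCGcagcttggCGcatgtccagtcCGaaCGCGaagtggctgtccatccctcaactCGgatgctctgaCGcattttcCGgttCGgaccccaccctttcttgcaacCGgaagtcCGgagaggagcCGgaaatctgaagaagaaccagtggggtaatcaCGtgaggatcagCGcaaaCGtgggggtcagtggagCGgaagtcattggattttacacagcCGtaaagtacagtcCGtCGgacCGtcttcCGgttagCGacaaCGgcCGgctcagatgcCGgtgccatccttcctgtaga
Peg3, chr7:6730370-6730669, - strand: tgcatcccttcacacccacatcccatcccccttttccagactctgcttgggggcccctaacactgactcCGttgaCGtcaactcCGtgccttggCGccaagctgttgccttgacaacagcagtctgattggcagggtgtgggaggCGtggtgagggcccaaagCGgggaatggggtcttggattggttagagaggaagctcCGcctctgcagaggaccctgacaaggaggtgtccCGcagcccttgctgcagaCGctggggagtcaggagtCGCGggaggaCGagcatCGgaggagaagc
Slc38a4, chr15:97055907-97056206, - strand: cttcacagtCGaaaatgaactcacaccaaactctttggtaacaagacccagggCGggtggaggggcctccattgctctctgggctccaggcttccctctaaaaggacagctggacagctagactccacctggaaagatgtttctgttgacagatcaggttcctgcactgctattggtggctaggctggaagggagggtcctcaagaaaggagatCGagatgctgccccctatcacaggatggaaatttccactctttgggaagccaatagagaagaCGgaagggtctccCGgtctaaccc
Magel2, chr7:62376729-62377028, + strand: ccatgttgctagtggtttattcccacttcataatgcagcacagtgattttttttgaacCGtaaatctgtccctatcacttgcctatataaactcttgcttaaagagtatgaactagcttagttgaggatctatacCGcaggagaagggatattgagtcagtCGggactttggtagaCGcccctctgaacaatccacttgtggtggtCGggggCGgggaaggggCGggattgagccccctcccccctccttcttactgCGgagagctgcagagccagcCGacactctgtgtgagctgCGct
Rasgrf1, chr9:89909525-89909824, + strand: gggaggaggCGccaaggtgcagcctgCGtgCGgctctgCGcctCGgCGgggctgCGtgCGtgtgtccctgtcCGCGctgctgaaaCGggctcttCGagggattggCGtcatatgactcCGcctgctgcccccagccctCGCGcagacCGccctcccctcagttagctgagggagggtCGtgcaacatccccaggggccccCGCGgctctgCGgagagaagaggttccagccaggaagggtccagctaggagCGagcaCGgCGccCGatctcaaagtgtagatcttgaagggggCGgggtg
The Kcnq1ot1 promoter held 9 CpGs, that of Mcts2 25, Peg3 13, Slc38a4 5, Magel2 10, and Rasgrf1 26, against a median of 7 over the 32841 promoters of the table. CpG number did not separate the marks, since the promoters richest in CpG were Mcts2 with H3K4me3 and Rasgrf1 with H3K27me3.

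The region 2 to 4 kb upstream of the H19 start (chr7:142580143-142582143), which is the insulator between H19 and Igf2, held 3 matches to the CTCF motif described for this insulator, with both strands searched. The matches are printed with 8 bases on either side, on the - strand and with the motif in capitals, because this motif was found in 0 of the 48 windows around the member starts and in 0.0686% of those around all gene starts.
H19 match, chr7:142580301-142580330: agacgatgCCGCGTGGTGGCAGtacaatac
H19 match, chr7:142580756-142580785: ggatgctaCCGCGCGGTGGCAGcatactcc
H19 match, chr7:142582026-142582055: gggagttgCCGCGTGGTGGCAGcaaaatcg

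Depth differed between targets, replicates, and genotypes. Within every target, each KO library was deeper than the WT library of the same number. For H3K27me3 the distinct fragments were 2891646 and 200457 in WT 1 and WT 2, and 3806026 and 711758 in KO 1 and KO 2. Distinct fragments numbered 784360 to 3394830 per H3K4me3 library, 200457 to 3806026 per H3K27me3 library, 5009169 to 6746382 per H3K9me3 library, and 159611 to 270598 per IgG library. The shallowest H3K27me3 library was WT 2, in which 1 fragment is worth 4.99 FPM (fragments scaled to 1000000 distinct fragments per library), so its values are coarse throughout. The 12 defining genes of spermatids had a median of 14.5 FPM of H3K4me3 within 1 kb of their starts, above H3K27me3 at 12 of 12. The protamine genes Prm1 and Prm2 lay below that median, at 1.54 and 9.84 FPM. The 6 Sertoli markers had a median of 0.311 FPM, the 6 Leydig markers 0.203, and the 6 blood markers 0.233, whereas the 6 spermatocyte markers had 14.0 and the 6 spermatogonial markers 1.75, with 25.3 FPM of H3K27me3. The 3 H2A.B genes collected 19 fragments over all KO libraries and 16 over all WT libraries, too few to check the genotypes, and the deletions remove only part of each gene.

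Member starts were read as FPM within 1 kb on either side. The median member had 2.01 FPM of H3K4me3, 2.04 FPM of H3K27me3, and 0.138 FPM of H3K9me3. The median protein-coding gene had 3.24, 0.351, and 0.148 FPM of the same marks. The members spread widely around their medians, from 0 to 23.8 FPM for H3K4me3 and from 0 to 41.2 FPM for H3K27me3. H3K9me3 never exceeded a mean of 0.939 FPM. IgG left 29 of the 48 starts with 0 fragments in all 4 libraries and at most 4 fragments at any start. A count of 0 over the pooled IgG libraries allows up to 3.79 FPM, and such limits and all intervals given here cover counting error only. In sorted bulk cells, a mark in fewer cells and less of the mark per cell cannot be told apart.

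Members were sorted by a test of H3K4me3 against H3K27me3, so no member can fall in both sets. Of 41 members with at least 10 fragments, 13 had more H3K4me3 than H3K27me3 (limma, adjusted p under 0.05), 19 had more H3K27me3, and 9 differed in neither direction. Over all 29336 gene starts tested, 52.6% had more H3K4me3 and 29.7% more H3K27me3. The median log2 ratio of the marks was 0.26 over the members and 2.10 over all genes tested. The ratio rests on scaling each library to its own total, which assumes equal yields of both antibodies. With median-of-ratios scaling, 21 members had more H3K4me3 and 13 more H3K27me3, against 18488 and 5394 of the 29336 starts, and the median over all genes rose to 4.07.

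**Figure D1:**
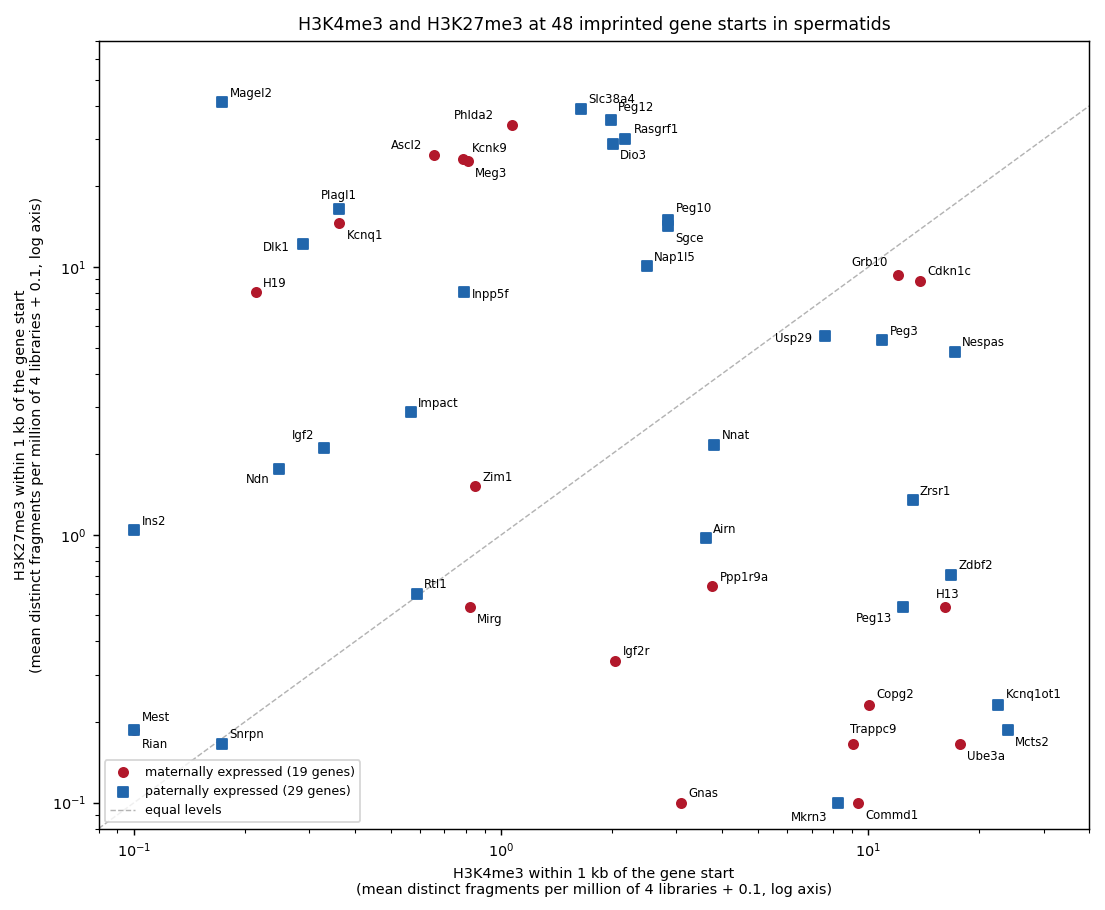
Mean H3K27me3 (vertical axis) against mean H3K4me3 (horizontal axis) at the 48 gene starts, in FPM over 4 libraries on log axes. Points are colored and shaped by the expressed copy, maternal or paternal. The 13 members with more H3K4me3 lie at the lower right, led by Mcts2 at 23.8 FPM, and the 19 with more H3K27me3 at the upper left, led by Magel2 at 41.2 FPM.

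The members with the most H3K4me3 included genes with promoters methylated in oocytes. At Mcts2 (chromosome 2, 152687035), a retrogene in an intron of H13, H3K4me3 was 12.8 and 23.4 FPM in WT 1 and WT 2 and 23.0 and 36.2 FPM in KO 1 and KO 2. All 4 libraries were high, and the genotypes overlapped. Its mean of 23.8 ± 9.62 FPM (SD, n = 4) stood at the 96.4 percentile of all genes, while H3K27me3 had 1 fragment over 4 libraries, a pooled ratio of 212 (95% interval 37.7 to 8422; limma adjusted p = 1.65e-09). Kcnq1ot1 (chromosome 7, 143296549) encodes the long noncoding RNA that silences its neighbors on the paternal chromosome. Its H3K4me3 was 16.6 and 22.0 FPM in WT and 23.0 and 28.3 FPM in KO. Both KO values lay above both WT values, by less than 1 SE of the limma estimate (log2 difference 0.33, SE 0.35). H3K27me3 had 2 fragments there, and the pooled ratio was 92.8 (25.3 to 772).

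Nespas (chromosome 2, 174295436), an antisense RNA in the Gnas cluster, had fragments of both marks and was called above IgG for H3K4me3 alone. H3K4me3 was 12.8 and 15.6 FPM in WT and 22.3 and 17.7 FPM in KO, and H3K27me3 was 3.804, 4.99, 4.47, and 5.62 FPM in the same order. H3K27me3 was even across libraries, and H3K4me3 was 4.01 times higher (2.72 to 6.06; limma log2 difference 1.88, SE 0.48, adjusted p = 0.000334). Zrsr1 (chromosome 11, 22972005), a retrogene related to splicing factors inside Commd1, had 11.47 and 12.8 FPM of H3K4me3 in WT and 16.3 and 11.8 FPM in KO. Its genotypes overlapped, and a single H3K27me3 fragment fell there. The noncoding RNA Peg13, at a mean of 12.3 ± 3.36 FPM, completed the 5 members of the oocyte-methylated class with more H3K4me3. Of the 17 in the class 15 were tested, and 6 had more H3K27me3. Among all starts tested, 52.6% had more H3K4me3 and 29.7% more H3K27me3.

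The other members with more H3K4me3 than H3K27me3 were protein-coding genes outside that class. Ube3a (chromosome 7, 59228750), the ubiquitin ligase lost in Angelman syndrome, had 12.8 and 17.4 FPM in WT and 25.2 and 15.02 FPM in KO, and 1 H3K27me3 fragment. H13 (chromosome 2, 152669461), a signal peptide peptidase, had 8.92 and 15.6 FPM in WT and 20.8 and 19.1 FPM in KO. Zdbf2 (chromosome 1, 63273265), a zinc-finger gene near a region methylated in sperm, had 10.2 and 18.8 FPM in WT and 17.1 and 20.6 FPM in KO. The genotypes overlapped at Ube3a and Zdbf2, and at H13 both KO values were the higher. The coatomer subunit gene Copg2, the trafficking gene Trappc9, Commd1, Mkrn3, and Gnas, which encodes the stimulatory G protein alpha subunit, had means between 2.996 and 9.96 FPM. H3K27me3 was at 0 in all libraries at 3 of these, and 3 fragments over the 4 libraries served as the floor. H3K4me3 was thus at least 23.4-fold higher at Commd1, 19.1-fold at Mkrn3, and 6.91-fold at Gnas. Neither Commd1 nor Gnas was called above IgG, and Gnas had 21 H3K4me3 fragments and 1 IgG fragment. Gnas lost its call against H3K27me3 without WT 1 or without KO 2.

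The 8 starts with the most H3K27me3 stood between the 94.6 and 98.0 percentiles of all genes. The 90th percentile of protein-coding starts was 23.6 FPM. Magel2 (chromosome 7, 62377010), a MAGE-family gene of the Prader-Willi region, had 48.8 and 29.9 FPM of H3K27me3 in WT and 65.2 and 21.1 FPM in KO. Each value was high, the KO values enclosed the WT values, and the mean of 41.2 ± 19.7 FPM stood at the 98.0 percentile. H3K4me3 had 1 fragment there, and pooled H3K27me3 was 415-fold higher (74.1 to 16440; limma adjusted p = 3.58e-13). Its intronless neighbor Peg12 (62464510) had 45.0 and 34.9 FPM in WT and 47.0 and 14.1 FPM in KO, with KO 2 the lowest.

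The placental genes Phlda2 and Ascl2, Slc38a4, and Kcnk9 belonged to the same set. Phlda2 (chromosome 7, 143503150), which limits placental growth, had 43.9 and 19.9 FPM of H3K27me3 in WT and 44.9 and 26.7 FPM in KO. Ascl2 (142969264), a transcription factor required for the placenta, had 37.4 and 14.97 FPM in WT and 37.0 and 15.4 FPM in KO. At both genes replicate 1 exceeded replicate 2 in either genotype, and the genotypes overlapped. Slc38a4 (chromosome 15, 97055956), an amino acid transporter gene, had 36.7 and 44.9 FPM in WT and 44.4 and 29.5 FPM in KO. It belongs to the oocyte-methylated class, as does the zinc-finger gene Plagl1, whose upstream gene start had a mean of 16.3 ± 12.7 FPM. Kcnk9 (72546340), a potassium channel gene, had 28.0 and 29.9 FPM in WT and 31.8 and 11.2 FPM in KO. Its neighbors Trappc9 and Peg13 carried H3K4me3 instead.

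The set with more H3K27me3 also held Kcnq1, Inpp5f, Peg10, Sgce, Nap1l5, Impact, Dlk1, H19, and Igf2, with means between 2.01 FPM at Igf2 and 14.9 FPM at Peg10. The starts of Peg10, a retrotransposon-derived gene, and Sgce, a sarcoglycan gene, lie 99 bp apart and share nearly all their fragments. The windows of Peg3 and Usp29, 147 bp apart, also overlap, with 80 H3K4me3 fragments at Peg3 and 58 at Usp29. The 48 members thus have 46 separate start windows. Igf2, the fetal growth factor, rested on 11 H3K27me3 fragments against 2 of H3K4me3 (adjusted p = 0.0433). With median-of-ratios scaling its log2 ratio turned from -1.88 to 0.11.

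**Figure D2:**
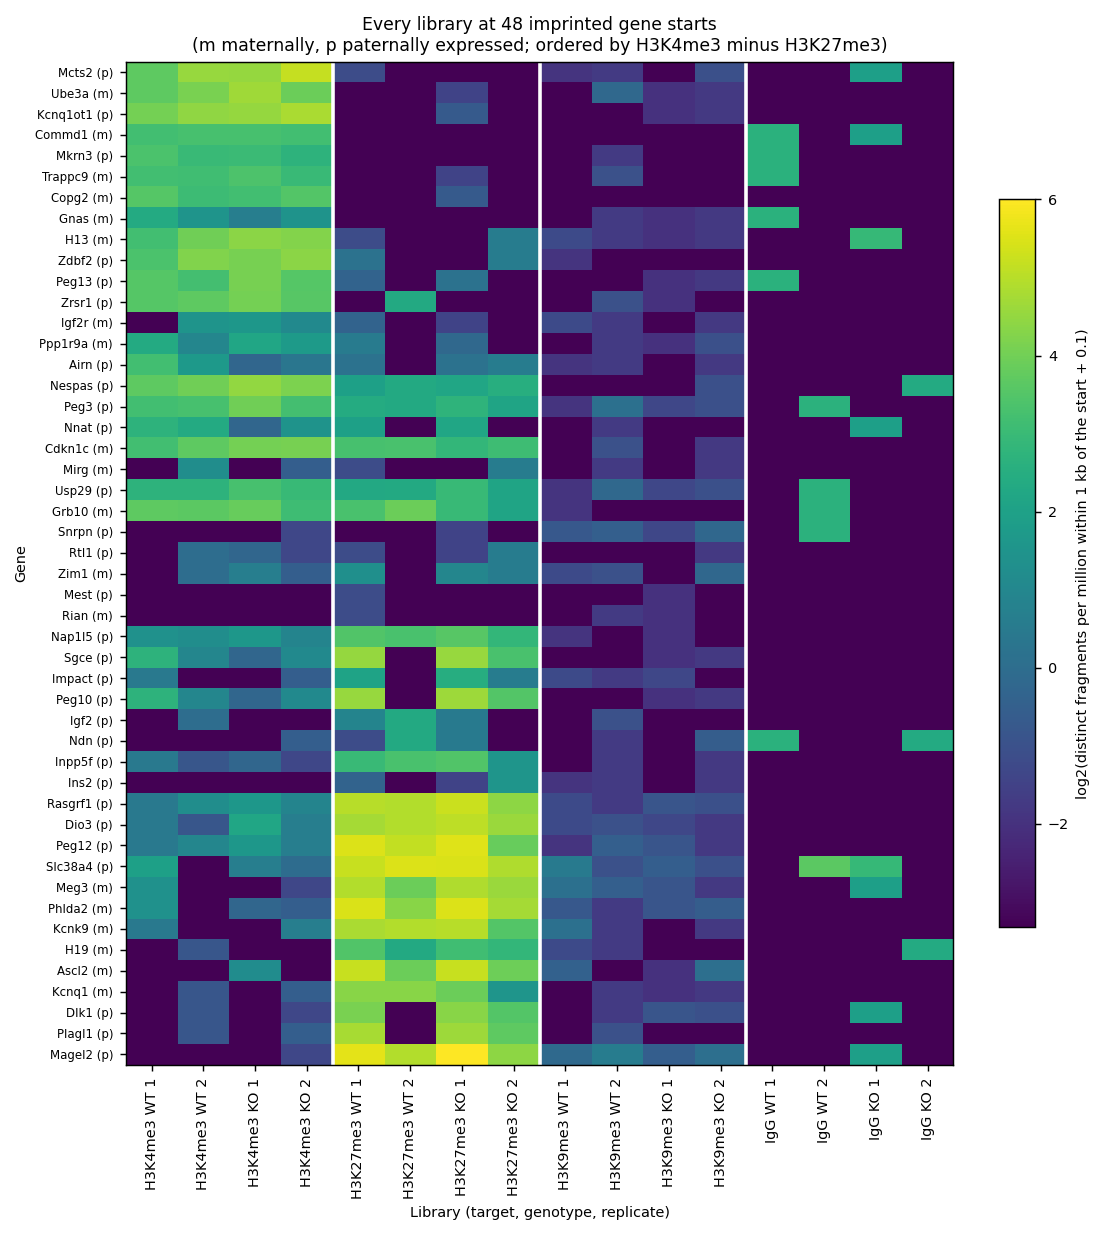
FPM within 1 kb of each of the 48 gene starts (rows) in each of the 16 libraries (columns), colored on a log scale, with members ordered from more H3K4me3 to more H3K27me3. Kcnq1ot1 and Mcts2 are high in the 4 H3K4me3 libraries, Magel2 and Slc38a4 in the 4 H3K27me3 libraries, the H3K9me3 columns are low throughout, and the colored IgG cells stand for single or few fragments in shallow libraries.

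Cdkn1c, Peg3, Usp29, and Grb10 had fragments of both marks at levels that the test did not separate. Only Cdkn1c and Grb10 were called above IgG for both, Peg3 for H3K4me3 alone, and Usp29 for neither. With the animal as a block Usp29 was called above IgG for H3K4me3. Cdkn1c (chromosome 7, 143461050), the cyclin-dependent kinase inhibitor p57, had 8.92 and 12.8 FPM of H3K4me3 in WT and 16.3 and 16.8 FPM in KO. Its H3K27me3 was 9.68 and 9.98 FPM in WT and 7.09 and 8.43 FPM in KO. H3K4me3 was the higher mark except in WT 1, and the overall log2 ratio was 0.78 (SE 0.43, adjusted p = 0.0898). Grb10, an adaptor that dampens insulin signaling, had means of 11.9 ± 2.38 FPM of H3K4me3 and 9.21 ± 4.52 FPM of H3K27me3. Peg3, a zinc-finger gene, had 10.8 ± 3.19 and 5.24 ± 0.980 FPM, and its partner Usp29, a deubiquitinase gene, 7.52 ± 1.53 and 5.42 ± 1.51 FPM. Since these libraries average over cells, both marks on the same nucleosomes and each mark in different cells cannot be told apart. Zim1, Ppp1r9a, Igf2r, Airn, and Nnat, the remaining members without a call, had means of at most 3.70 FPM of either mark. Ins2, Mest, Snrpn, Ndn, Rtl1, Rian, and Mirg had under 10 fragments over the H3K4me3 and H3K27me3 libraries and were not tested.

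Among the 7 of 11 members that were tested in the domains controlled by sperm methylation, 6 had more H3K27me3 (29.7% of all starts) and 1, Zdbf2, had more H3K4me3 (52.6%). Igf2 is one of the 6 and changed sign with median-of-ratios scaling. H3K27me3 was called above IgG at only 3 of the 6 (53.2% of all starts tested), and not at H19 or Dlk1. H19 (chromosome 7, 142578143), the noncoding RNA that shares its insulator with Igf2, had 11.1 and 4.99 FPM of H3K27me3 in WT and 8.67 and 7.03 FPM in KO. It had a single H3K4me3 fragment in 4 libraries. Meg3 (chromosome 12, 109541001), the noncoding RNA of the Dlk1 domain, had 30.4 and 14.97 FPM of H3K27me3 in WT and 29.7 and 23.9 FPM in KO. Dio3 (110279068), the deiodinase that inactivates thyroid hormone at the far end of that domain, had 26.97 and 29.9 FPM in WT and 33.9 and 23.9 FPM in KO. Rasgrf1 (chromosome 9, 89909908), a Ras activator, had 31.5 and 29.9 FPM in WT and 37.8 and 21.1 FPM in KO. At Meg3, Dio3, and Rasgrf1 the KO and WT values overlapped. The lowest value, 14.97 FPM at Meg3 in WT 2, is 3 fragments, which a count of 0 also allows in that library. Rtl1, Rian, and Mirg, between Meg3 and Dio3, had at most 7 fragments of either mark.

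The control regions of these domains differed from the gene starts beside them. The H19 region had 0 H3K4me3 fragments, 3 of H3K27me3, 2 of H3K9me3, and 0 of IgG over all libraries, which is 0.241 FPM per kb of H3K27me3 against 3.97 at the H19 start. The region 10 to 15 kb upstream of the Meg3 start (chr12:109526001-109531001) had 2 H3K4me3, 7 H3K27me3, and 11 H3K9me3 fragments. Both stretches held few fragments of every mark. In the Meg3 region H3K27me3 was 0.166 and H3K9me3 0.0982 FPM per kb, against 0.0949 and 0.0625 in the median gene body. In the H19 region H3K27me3 was also above that body median, and H3K9me3, at 0.0477 FPM per kb, was below its own. The region 25 to 35 kb upstream of Rasgrf1 (chr9:89874908-89884908) had 208 H3K27me3 fragments, 76 and 5 in WT and 111 and 16 in KO, against 1 of H3K4me3, 28 of H3K9me3, and 1 of IgG. Nearly all of them lay 25 to 30 kb upstream, with 82 in the kilobase from 28 to 29 kb and 0 to 3 in each kilobase beyond 30 kb. The densest kilobase had 9.52 FPM per kb, compared with 15.03 at the Rasgrf1 start. That these coordinates cover the methylated regions rests on their usual distance from each gene, since DNA methylation was not measured.

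Several members have further promoters, and their GENCODE gene start is the most upstream of them. The 48 members have 140 transcript starts that lie at least 1 kb apart, and 31 members have several. The starts named next were chosen after their values were seen. Igf2 had 2.01 FPM of H3K27me3 at its gene start, but at the start 7327 bp into the gene (chromosome 7, 142659489) it had 47.0 and 49.9 FPM in WT and 66.7 and 42.1 FPM in KO, with 0 H3K4me3 fragments. Mest, a hydrolase-fold gene with 1 H3K27me3 fragment at its gene start, had means of 43.5 and 39.3 FPM at starts 9907 and 14503 bp into the gene. At both genes H3K27me3 was far higher within the gene than at the gene start.

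Gnas showed different marks at different starts. Its gene start, at 174284320, had 2.996 FPM of H3K4me3 and 0 of H3K27me3, whereas the starts 13539, 43250, and 45686 bp further in had 25.5, 37.5, and 28.7 FPM of H3K27me3 and 1.48, 0.115, and 3.55 FPM of H3K4me3. Snrpn, a spliceosomal protein gene that had 1 fragment of each of these marks at its gene start, had H3K4me3 at the start 135108 bp downstream (60005111) of 2.55 and 4.13 FPM in WT and 11.1 and 6.78 FPM in KO. Both KO values there lay above both WT values, over 49 fragments in all, and H3K27me3 had 13, 0, 19, and 0 fragments in WT 1, WT 2, KO 1, and KO 2. Mirg had 6.497 FPM of H3K4me3 and 0 H3K27me3 fragments at a start 7938 bp into the gene. A second Plagl1 start 30187 bp downstream had 34.6 FPM of H3K27me3 and 4.20 FPM of H3K4me3. Impact had 0.466 FPM of H3K4me3 and 2.768 FPM of H3K27me3 at its gene start. At a start 18446 bp into that gene they were 4.455 and 1.225 FPM. Grb10 had 5.345 FPM of H3K4me3 and 0.304 FPM of H3K27me3 at a start 12359 bp into the gene. At an Inpp5f start 76218 bp into the gene they were 3.483 and 0.0865 FPM.

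**Figure D3:**
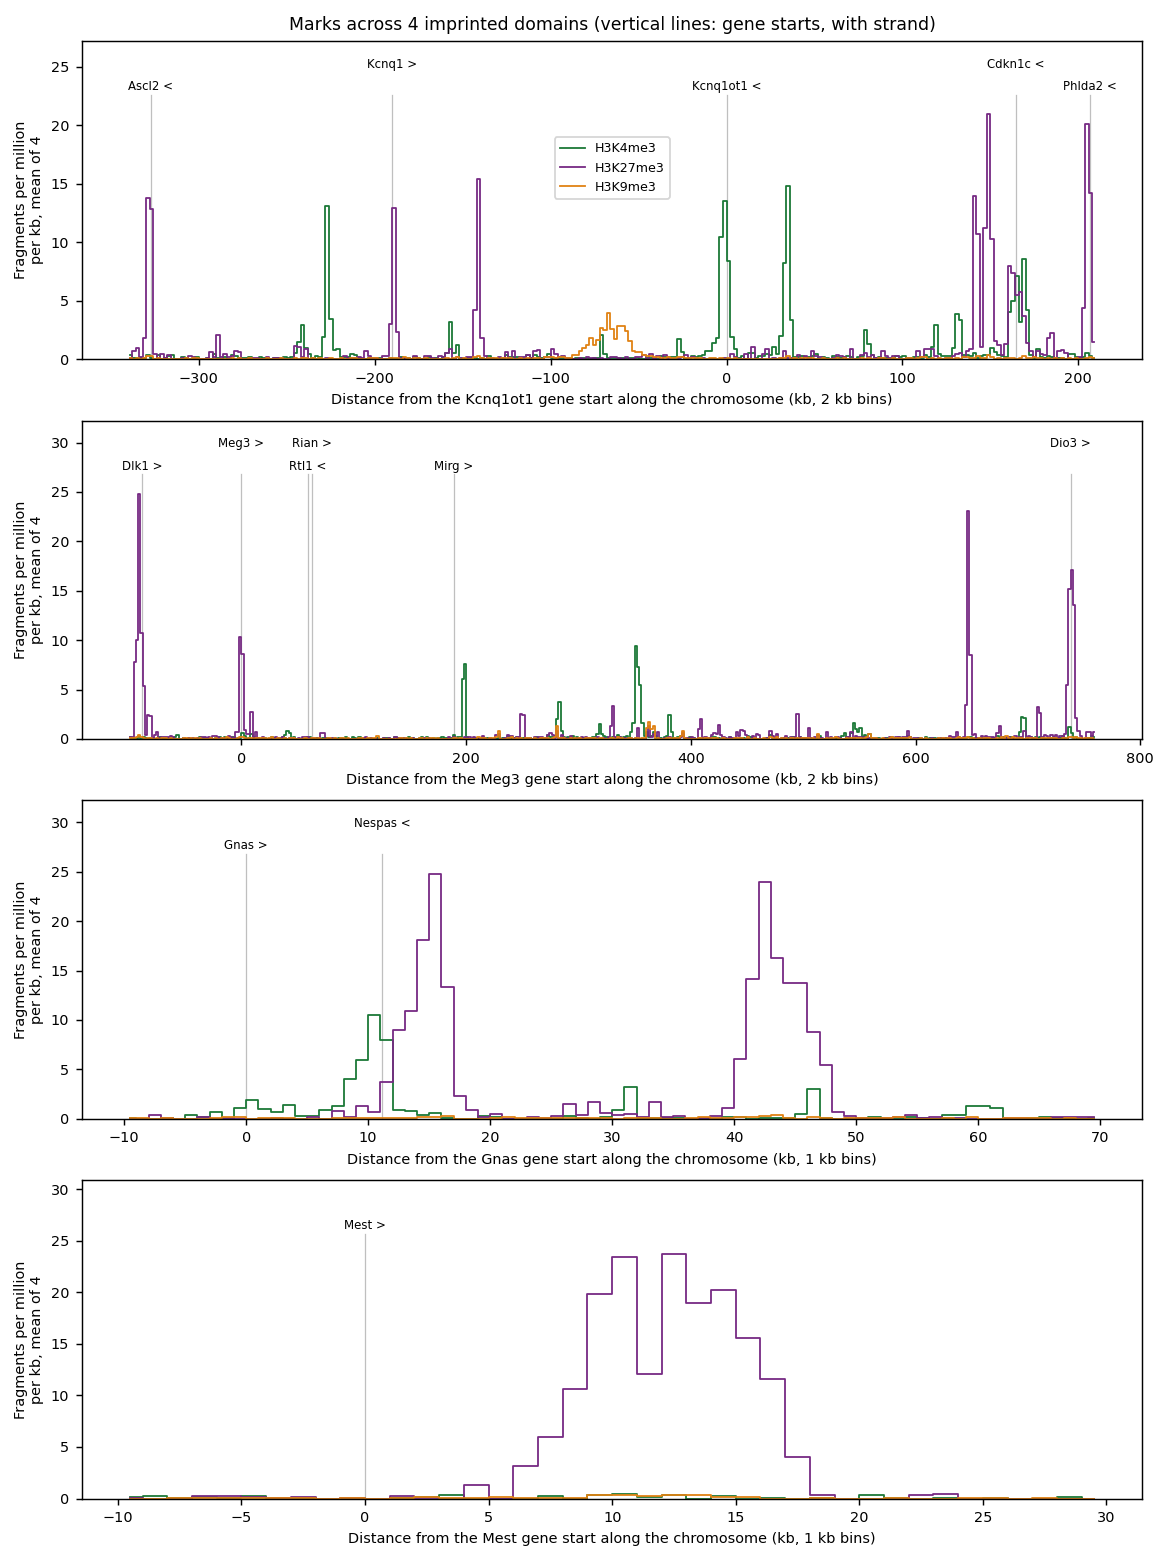
Mean FPM per kb of H3K4me3, H3K27me3, and H3K9me3 (vertical axis, mean of 4 libraries) against distance from the gene start in kb (horizontal axis), in 2-kb bins around Kcnq1ot1 and Meg3 and 1-kb bins around Gnas and Mest. H3K4me3 forms one of its peaks at the Kcnq1ot1 start, with H3K9me3 50 to 85 kb downstream of it, and H3K27me3 rises at the Meg3 start and inside Gnas and Mest.

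Over whole gene bodies, Phlda2, Magel2, Dio3, Ascl2, and Peg12 were again among the 8 members highest in H3K27me3, and Igf2, Cdkn1c, and Mest took the places of Slc38a4, Rasgrf1, and Kcnk9. Kcnq1ot1 and Ube3a, among the highest starts for H3K4me3, ranked only 14 and 15 over bodies. Phlda2 had 22.5 ± 5.44 FPM per kb of H3K27me3 over its 1.61 kb, at the 99.3 percentile of all genes, and Magel2 17.6 ± 6.05 over its 4.63 kb. Igf2 reached 9.44 ± 1.71 FPM per kb, with 9.26 and 9.63 in WT and 11.52 and 7.35 in KO, although its gene start was low. Mcts2 had 12.8 ± 6.71 FPM per kb of H3K4me3 and Peg13 7.81 ± 2.33. In 7 pairs of members the gene bodies overlap or nest, as Kcnq1ot1 does in Kcnq1, so their body counts share fragments.

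H3K9me3 was scarce at the member starts and present in the body of Kcnq1ot1. Magel2 had the highest start value, 0.813 and 1.40 FPM in WT and 0.593 and 0.954 FPM in KO, from 21 fragments. Slc38a4 had 1.301 and 0.399 FPM in WT and 0.593 and 0.382 FPM in KO, and Meg3 0.976 and 0.599 FPM in WT and 0.445 and 0.191 FPM in KO. Snrpn had 0.488, 0.599, 0.296, and 0.763 FPM and Peg3 0.163, 0.998, 0.296, and 0.382 FPM in the order WT 1, WT 2, KO 1, KO 2. All of these values lay below the 90th percentile of all gene starts, 1.74 FPM. Only Magel2, with 0.939 FPM, had a mean above the 90th percentile of protein-coding starts, 0.8295 FPM.

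Across the 93.1 kb of the Kcnq1ot1 transcript, H3K9me3 was 0.584 and 0.890 FPM per kb in WT and 0.904 and 0.742 in KO. The genotypes overlapped, and the mean of 0.780 ± 0.150 stood at the 88.7 percentile of gene bodies. The fragments lay mostly 50 to 85 kb downstream of the start, where successive 5-kb stretches held 87, 288, 257, 381, 221, 166, and 81 fragments. H3K4me3 took the opposite end, with 408 fragments in the first 5 kb and 47 in the next. The Kcnq1 gene body, in which Kcnq1ot1 lies, had 0.276 ± 0.0572 FPM per kb of H3K9me3 over 321 kb.

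Each mark was also compared with IgG, the share of all genes called being given beside the members' count. H3K4me3 was higher than IgG at 14 of 28 member starts tested (64.3% of all starts tested) and H3K27me3 at 17 of 26 (53.2%). With median-of-ratios scaling the H3K4me3 count was 7 of 28. Cdkn1c and Grb10 were higher than IgG for both marks. H3K9me3 was higher at 0 of the 8 member starts tested with limma and with limma-trend (2.65% of all starts). At 7 of the 8 starts H3K9me3 was called lower than IgG (41.1% of all starts; 8 of 8 by limma-trend), and 0 starts on the higher side had an unadjusted p under 0.05. These calls rest on at most 4 IgG fragments per start and so depend on the value assigned to a count of 0, and 0 remained with median-of-ratios scaling or with every deposited fragment and 2 to 4 when both libraries of any 1 animal were left out. H3K4me3 was lower than IgG at 1 start (2.78%), that of Slc38a4, and H3K27me3 at 0 (3.79%) by limma and limma-trend, with 0 on that side at an unadjusted p under 0.05. Over gene bodies, H3K4me3 was higher than IgG at 14 of 41 members (39.5% of all bodies), H3K27me3 at 18 of 43 (27.8%), and H3K9me3 at 1 of 37 (5.81%). H3K4me3 was lower than IgG at 5 bodies (11.8%), H3K27me3 at 8 (20%), and H3K9me3 at 25 (65.2%). The member above IgG for H3K9me3 was Kcnq1ot1, with a log2 difference of 1.94 (SE 0.51, adjusted p = 0.00947), and it was not called when every deposited fragment was counted. These comparisons share the same 4 IgG libraries. Between marks at the starts, H3K4me3 exceeded H3K9me3 at 28 of 35 members (66.8%) and fell below it at 1 (15%), Magel2, with a log2 difference of -1.32 and an adjusted p of 0.0479. Magel2 was not called in that comparison without WT 2, without KO 1, or without KO 2, with the animal as a block, or in the other windows. H3K27me3 exceeded H3K9me3 at 29 of 30 (54.3%) and fell below it at 0 (18.8%), also by limma-trend, with 29 members at an unadjusted p under 0.05. With median-of-ratios scaling the first comparison gave 17 members higher and 6 lower (14399 and 11548 of all 32003 starts), and the second 0 higher and 9 lower (198 and 14357 of all 23419). The median over all starts in the second moved from 2.75 to -3.10, so the direction between H3K27me3 and H3K9me3 depends on the scaling.

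The classes by expressed copy overlapped for every mark. Of the 19 maternally expressed members, 6 had more H3K4me3, 6 more H3K27me3, 5 neither, and 2 were not tested. The 29 paternally expressed members divided into 7, 13, 4, and 5, where 52.6% and 29.7% of all starts tested had more H3K4me3 and more H3K27me3. Medians over the members gave a maternal minus paternal difference of 0.56 ± 0.63 log2 units for H3K4me3 (SD over 4 libraries, range 0 to 1.47) and -1.18 ± 0.98 for H3K27me3 (range -2.36 to 0). Maternally expressed members had the higher H3K4me3 median in 3 of 4 libraries, and paternally expressed members the higher H3K27me3 median in 3 of 4. With each member's mean over the 4 libraries, the H3K4me3 medians were instead 1.945 FPM for maternally and 2.076 FPM for paternally expressed members. The direction for H3K4me3 thus depended on the summary used. The H3K27me3 medians of these means were 0.543 and 2.768 FPM. In H3K4me3 WT 1 the class medians were equal, and in H3K27me3 WT 2, where 1 fragment is worth 4.99 FPM, both were 0, which gives no measurement of the difference. Without H3K27me3 WT 2 the difference for that mark was -1.57. The H3K4me3 difference was smaller than the spread between libraries and fell to 0.26 without KO 1, and the H3K27me3 difference was -0.78 without KO 1, -2.80 in windows of 2 kb on either side, and -0.075 over gene bodies. The classes by methylation divided as 5 with more H3K4me3, 6 with more H3K27me3, 4 with neither, and 2 not tested among the 17 of the oocyte-methylated class, and as 7, 7, 5, and 1 among the 20 other members. The oocyte-methylated class includes Snrpn and Mest, the 2 not tested, and Plagl1 and Impact, all read at their upstream gene starts. The windows of Snrpn and Mest there hold 8 and 18 CpGs.

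Loss of H2A.B was not followed by a called change at any member. Limma tested 27 member starts for H3K4me3, 26 for H3K27me3, and 7 for H3K9me3, and called 0 of them, as it called 0% of all gene starts tested for each mark. Limma-trend also called 0. At an unadjusted p under 0.05 there were 1, 1, and 0 members by limma and 2, 1, and 0 by limma-trend. Over gene bodies 0 of 41, 43, and 36 members were called for the 3 marks by limma, which again called 0% of all genes, and by limma-trend, with 0 at an unadjusted p under 0.05 by either. Among the members' IgG gene bodies, 0 of 18 were called (0% of all) and 1 had an unadjusted p under 0.05 by limma and by limma-trend. With the sibling pair as a block, 0 members were called for any histone mark, although some other genes were, at most 48 higher and 13 lower of 26735 for H3K9me3 bodies. In IgG bodies the block called 1 member, Kcnk9, whose log2 difference turned from -1.01 to 2.97, and 9 higher and 40 lower among all 6659.

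Median log2 differences of KO over WT at the starts were 0.18 for H3K4me3, -0.07 for H3K27me3, and -0.27 for H3K9me3, compared with 0.13, -0.13, and 0.01 over all starts tested. These medians moved when 1 library was left out, to between -0.10 (without KO 1) and 0.27 (without KO 2) for H3K4me3, between -0.42 (without KO 1) and 0.15 (without KO 2) for H3K27me3, and between -0.52 (without KO 1) and -1.05 (without WT 2) for H3K9me3, so their sign or size rests on single libraries. Their individual standard errors had medians of 0.44, 0.82, and 1.03 log2 units, so differences of about that size were not detectable at this depth. In simulated libraries of this depth with a CV of 0.3 between replicates, a 4-fold change was called at 57 of 200 changed H3K4me3 starts, 64 of 200 for H3K27me3, and 30 of 200 for H3K9me3. With no spread beyond counting error, 145, 135, and 84 of 200 were called.

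The members with the smallest p included several at low counts. Airn, the antisense RNA that silences Igf2r, had 8.92 and 3.21 FPM of H3K4me3 in WT and 0.742 and 1.18 FPM in KO, on 19 fragments. Both KO values lay below both WT values (log2 difference -1.91, SE 0.82, limma adjusted p = 0.998). The neuronatin gene Nnat had 6.38 and 5.04 FPM in WT and 0.742 and 2.65 FPM in KO, a log2 difference of -1.46. H13 had the third-smallest p, with both KO values above both WT values and a log2 difference of 0.55 (SE 0.39). For H3K27me3, Igf2 had 1.73 and 4.99 FPM in WT and 1.31 and 0 FPM in KO (log2 difference -2.09, SE 0.96, limma adjusted p = 0.9999), where the WT 2 value is a single fragment. Dlk1, a Notch-like membrane protein gene, had 17.3 and 0 FPM in WT and 19.97 and 11.2 FPM in KO, and Peg10 had 23.5 and 0 FPM in WT and 24.96 and 11.2 FPM in KO. A count of 0 in WT 2 allows up to 14.97 FPM, so neither gene can be said to lack the mark there. For H3K9me3, the smallest p at a start was that of Meg3, with a log2 difference of -1.08 (SE 1.03), followed by Magel2 at -0.47 and Slc38a4 at -0.57.

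Over gene bodies, the smallest p for H3K4me3 belonged to Mcts2, with 3, 24, 18, and 63 fragments in WT 1, WT 2, KO 1, and KO 2 and a log2 difference of 0.97 (SE 0.51). The inositol phosphatase gene Inpp5f followed with 17, 47, 16, and 58 fragments and a difference of -0.52, and Airn with 18, 58, 16, and 78 and a difference of -0.48. Scaled to depth, the genotypes overlapped at Airn, and both KO values were the lower at Inpp5f. For H3K27me3 it belonged to Kcnq1ot1, with 11, 0, 26, and 18 fragments and a log2 difference of 1.65 (SE 0.89), followed by Sgce with 39, 0, 64, and 8 fragments (1.27) and Peg3 with 14, 2, 14, and 2 (-0.89). H3K9me3 in the Kcnk9 body had 19, 22, 7, and 14 fragments, a log2 difference of -1.11 (SE 0.72), followed by the insulin gene Ins2 with 35, 38, 15, and 36 (-0.81) and Igf2 with 13, 12, 11, and 4 (-0.93). Every one of these estimates was within 2 SE of 0. Snrpn had the smallest p among the IgG bodies, with 7, 8, 4, and 4 fragments and a log2 difference of -1.38 (SE 0.60), and differences of that size thus arose in the control as well. Rasgrf1 followed there with 8, 13, 7, and 10 fragments (-0.85) and Kcnq1 with 6, 5, 14, and 16 (0.81).

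**Figure D4:**
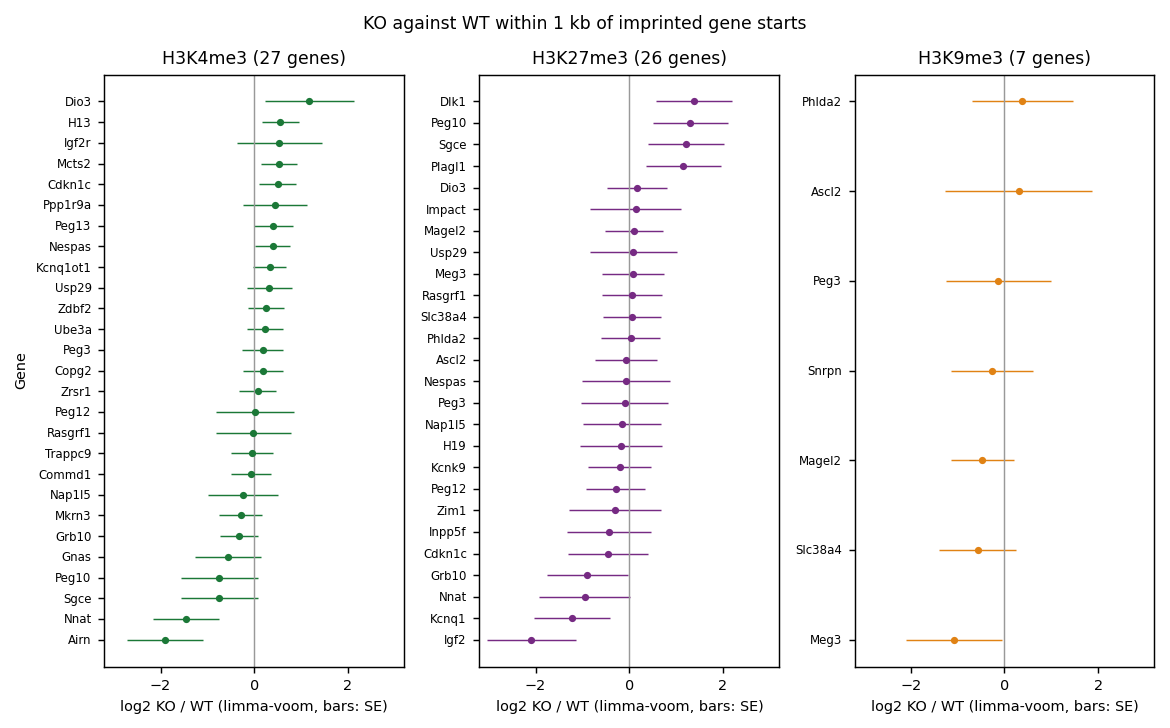
Log2 difference of KO over WT at each member start tested, with bars of 1 SE from limma, in a panel for each histone mark. The points scatter around 0 with medians of 0.18, -0.07, and -0.27, and none was called.

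Among the 8 members with the most H3K4me3, Kcnq1ot1, Nespas, H13, and Cdkn1c had both KO values above both WT values. Their log2 differences were 0.33, 0.39, 0.55, and 0.50, with standard errors of 0.35 to 0.40. The genotypes overlapped at Mcts2, Ube3a, Zdbf2, and Zrsr1. The median over all starts tested was itself 0.13, and how many of all starts separate the genotypes in this way was not counted. Among the 8 with the most H3K27me3, log2 differences ran from -0.29 at Peg12 to 0.16 at Dio3, and the genotypes overlapped at every one.

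Small fragments, those of at most 120 bp and shorter than a wrapped nucleosome, were counted against fragments of at least 150 bp within 1 kb of the member starts, summed over members. For H3K4me3 they made up 27.01% (Wilson 95% interval 21.0 to 34.1) and 25.1% (21.5 to 29.1) of both classes in WT 1 and WT 2, and 33.1% (28.5 to 38.0) and 39.1% (35.9 to 42.5) in KO 1 and KO 2. For H3K27me3 they made up 9.10% (7.74 to 10.7) and 5.80% (2.28 to 14.0) in WT, and 14.3% (12.9 to 15.9) and 23.4% (18.1 to 29.7) in KO. For both marks both KO libraries lay above both WT libraries and the KO was higher in 2 of 2 sibling pairs.

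The ratio of these size classes was higher in KO by 0.68 log2 units for H3K4me3 (0.42 and 0.94 in the pairs) and by 1.53 for H3K27me3 (0.74 and 2.31), against SDs between replicates of 0.20 and 0.56. An exact two-sided permutation test gave p = 0.333 for each, the smallest that 2 libraries against 2 allow. Over all gene starts the differences were 0.83 and 0.74, of the same sign as at the members, although the genotypes overlapped there for H3K27me3, with 15.8% in WT 2 above 14.2% in KO 1 (exact p = 0.667). IgG over all gene starts shifted the same way, by 0.26 (0.19 and 0.33 in the pairs; exact p = 0.333). The WT 2 value for H3K27me3 at the members rests on 4 small fragments. For H3K9me3 the shares were 10.3% and 28.3% in WT and 17.4% and 14.8% in KO, and the log2 difference was -0.16 with opposite signs in the pairs (0.87 and -1.19; exact p = 1). Without WT 2 it was 0.73, over gene bodies 0.39, and with every deposited fragment 0.38. Over all gene starts it was 0.25 (0.28 and 0.21 in the pairs; exact p = 0.667).

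**Figure D5:**
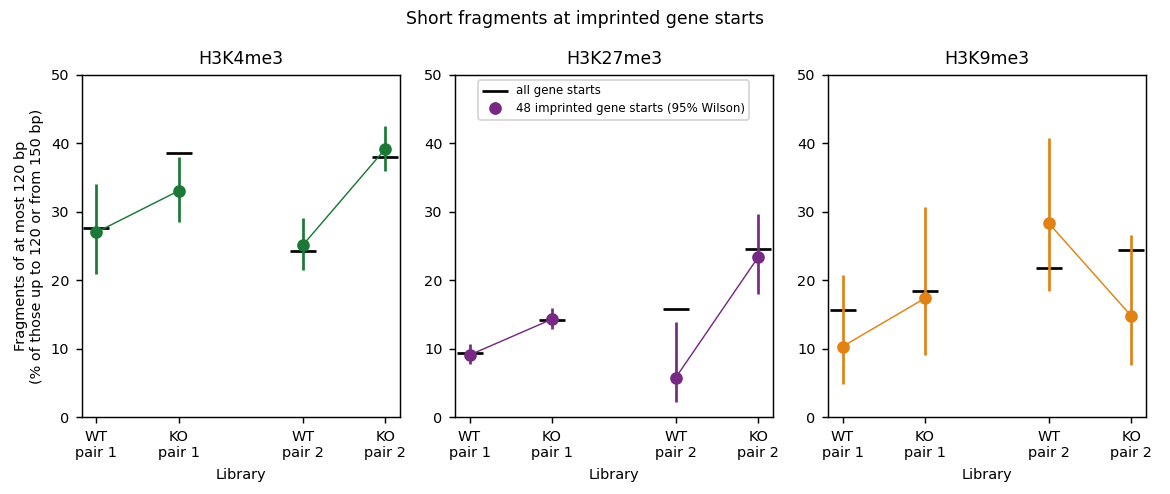
Share of fragments of at most 120 bp among those up to 120 bp or from 150 bp at the member starts (vertical axis, percent) in each library, with Wilson 95% intervals. Both KO libraries lie above both WT libraries for H3K4me3 and for H3K27me3, and the genotypes overlap for H3K9me3.

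Member starts were rich in CpG and in the short motif TGCCGC, which ZFP57 binds when it is methylated. Within 1 kb of the start the members had a median of 80.5 CpGs, against 61 at protein-coding genes and 25 at all genes. The 13 starts with more H3K4me3 had a median of 88 CpGs and the 19 with more H3K27me3 a median of 95. The 7 members with too few fragments to test had a median of 11. TGCCGC on either strand was found in 31 of 48 windows (64.6%), compared with 43.0% of protein-coding and 28.6% of all gene starts. At least 5 matches were found at 7 members, Peg3, Peg13, Nnat, Usp29, Airn, Nespas, and Nap1l5, all of them in the oocyte-methylated class. The shares were 0.596% of all gene starts and 1.14% of protein-coding starts. The windows of Peg3 and Usp29 overlap, so their matches are not separate. TGCCGC itself contains a CpG, and the gene starts compared were not matched for CpG number. These 7 included 2 with more H3K4me3, 1 with more H3K27me3, and 4 with neither. The YY1 motif CGCCATNTT was found at 6 members (12.5%) and at 5.65% of all starts. The region 25 to 35 kb upstream of Rasgrf1 held 9 TGCCGC matches, the Meg3 region 10, and the H19 region 5. A match describes these letters and not binding, and TGCCGC matches can share bases with matches to the CTCF motif.

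Genes that set, protect, or erase imprints were read from a separate list of 27, including DNA methyltransferases, ZFP57 and its partners, and Polycomb subunits. Of 23 tested, 13 had more H3K4me3 than H3K27me3 and 7 had more H3K27me3, near the 52.6% and 29.7% of all starts tested. The highest H3K4me3 was at Eed (19.7 ± 6.11 FPM) and Ezh2 (18.0 ± 5.35 FPM), both subunits of the Polycomb complex that writes H3K27me3, and at Setd2 (18.0 ± 2.56 FPM), an H3K36 methyltransferase gene. H3K27me3 was highest at Dppa3 (29.03 ± 10.7 FPM), which protects maternal methylation after fertilization, at the DNA methyltransferase gene Dnmt3a (25.4 ± 5.18 FPM), and at Ctcfl (12.8 ± 5.78 FPM), a testis paralog of CTCF. Trim28, the corepressor that ZFP57 recruits, had the highest H3K9me3 of the list, 1.79 ± 0.403 FPM from 42 fragments. In KO against WT at starts, 18 of these genes could be tested for H3K4me3, 9 for H3K27me3, and 2 for H3K9me3. Limma called 0 of them, as it called 0% of all starts tested.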

How the data were processed

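AutoCUT&RUN was run on spermatids of 2 WT and 2 KO males per target. Per the submitters' processing notes, reads were aligned to mm10 with Bowtie2 2.3.4.3. For each library the authors deposited the position and length of every mapped fragment, unscaled and not pooled, with no counts per region. The study's methods describe removal of PCR duplicates, yet 33.6 to 83.4% of the fragments in a library were repeats of coordinates already listed, so each chromosome, start, and end was counted once, which caps the count where fragments truly coincide.

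From the deposited positions, distinct fragments with their midpoint within 1 kb of each GENCODE vM21 gene start, or in the gene body, were counted on the 19 autosomes, X, and Y and scaled to the library's distinct fragments. Windows with at least 10 fragments in the libraries compared were tested with limma-voom, with library sizes as scaling, two-sided moderated statistics, and Benjamini-Hochberg adjustment over all genes tested, and were called at an adjusted p under 0.05. The fit was tested on simulated counts. Size ratios were compared by exact permutation, and class medians used log2(FPM + 0.1). Pooled ratios have exact 95% intervals.

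The labels give every library its group. Replicate numbers mark sibling pairs, from the study's methods, and each number also goes with its own date-like code in the titles, so pair and run cannot be told apart. Deviations of same-numbered KO and WT libraries correlated at 0.307 for H3K4me3, 0.319 for H3K27me3, 0.242 for H3K9me3, and 0.256 for IgG. With 2 animals per genotype, limma p-values of KO against WT measure the spread between these animals and their runs, with variances moderated over all genes. Between targets, libraries of the same animal were treated as independent in the main fit. Those p-values therefore measure the spread between libraries.

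All 48 members may be named. Every library's value is given for the 8 members highest in H3K4me3, the 8 highest in H3K27me3, the 5 highest in H3K9me3, the 3 with the smallest p per KO comparison, and H19, Meg3, Rasgrf1, and Zdbf2. Members, marker lists, and tests were chosen with earlier results of these data known. Alternatives were other windows, scaling, filters, tests, gene sets, duplicate handling, size limits, and pseudocounts, and omitting each animal's libraries. Blocking was also tried, on the sibling pair for KO against WT and on the animal, in place of the genotype covariate, between targets. Analyses used Python 3.11.15, NumPy 2.4.6, pandas 2.3.3, SciPy 1.17.1, matplotlib 3.10.9, R 4.3.3, and limma 3.58.1.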

Additional observations from a re-analysis of the deposited data

How the results depend on the processing

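The calls between marks depended most on scaling. With median-of-ratios scaling, H3K4me3 was higher than IgG at 7 member starts, higher than H3K27me3 at 21 starts, and higher than H3K9me3 at 17 starts and lower at 6. H3K27me3 was then higher than H3K9me3 at 0 starts and lower at 9. The log2 ratio of H3K4me3 to H3K27me3 at Igf2 turned to 0.11, and 5 further members lost their call. H3K9me3 in gene bodies exceeded IgG at 3 members with that scaling, at 2 when scaled to autosomal fragments or with limma-trend, and at 0 with every deposited fragment, under which H3K4me3 exceeded IgG at 6 bodies. Median-of-ratios scaling was not run for H3K27me3 against IgG at starts, where too few windows had fragments in every library, and it moved the median over all starts in KO against WT for H3K4me3 from 0.13 to -0.003. Counts of members below IgG moved most. With every deposited fragment H3K9me3 was below IgG at 0 starts and 11 bodies and H3K4me3 at 0 starts and 1 body. With a filter of at least 1 fragment the starts below IgG numbered 18 of 45 for H3K4me3 (28797 of all 49440), 19 of 48 for H3K27me3 (29964 of 45758), and 47 of 47 for H3K9me3 (45833 of 51340), and the H3K4me3 bodies 11 of 48 (19121 of 43281). Scaled to autosomal fragments, H3K9me3 was below IgG at 4 starts and 15 bodies, and with median-of-ratios scaling at 0 starts and 5 bodies, with 5 bodies also for H3K27me3. In 500-bp windows H3K4me3 was below IgG at 0 starts and H3K9me3 at 1, and in 2-kb windows at 2 and 16. H3K4me3 below H3K9me3 gave 0 members in the 500-bp and 2-kb windows. Maternal minus paternal H3K27me3 was -2.80 in 2-kb windows and -0.075 over gene bodies. The small-to-large difference for H3K9me3 turned to 0.0035 in 2-kb windows, 0.39 over gene bodies, and 0.38 with every deposited fragment. Its sign also turned without WT 2, to 0.73.

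With the sibling pair as a block in KO against WT, 1 member was called in IgG gene bodies, Kcnk9. Comparisons between targets were blocked on the animal instead, and 0 members then had H3K4me3 below H3K9me3. Calls were gained at Usp29 and Commd1 for H3K4me3 above IgG (16 starts), at H19 and Dlk1 for H3K27me3 above IgG (19 starts), and at Kcnk9 for H3K4me3 above H3K9me3 (29 starts). Calls below IgG were gained at Ascl2 for H3K9me3 at starts (8), at Rian and Kcnk9 for H3K4me3 in bodies (7), and at Peg3 and Usp29 for H3K9me3 in bodies (27). These blocks changed no other member's call.

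Leaving out each animal in turn, with its library of each target compared, gave 12 to 14 members with more H3K4me3 than H3K27me3 and 17 to 19 with more H3K27me3, 27 to 30 above and 0 to 1 below H3K9me3 for H3K4me3, and -1.05 to 0.73 for the H3K9me3 size ratio. Below IgG were 0 to 1 starts for H3K4me3, 2 to 4 starts for H3K9me3, and 2 to 5, 5 to 8, and 15 to 18 bodies for H3K4me3, H3K27me3, and H3K9me3. Gnas lost its call without WT 1 or without KO 2, Impact without KO 1, and Igf2 without KO 2, while without WT 1 or KO 1 Igf2 had too few fragments to test. The cause of these changes was not tested. Depth limited the IgG libraries most, where a count of 0 allows 11.09 to 18.8 FPM, and among the marks H3K27me3, where it allows 14.97 FPM in WT 2.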
